A study of Mus musculus with 12 samples.

Results

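The miRNAs described here are 6 mature miRNAs whose precursors reach Dicer without being cut by Drosha, chosen by name for this route: mmu-miR-320-3p, mmu-miR-484, mmu-miR-877-5p, mmu-miR-877-3p, mmu-miR-1224-5p and mmu-miR-702-3p. They are 6 of 1374 known mature miRNAs that had a count in the series, or of 1422 when predicted miRNAs are included. All 6 passed the filter on low counts (at least 5 counts in at least 3 libraries), which kept 780 of the 1422. Small RNA was sequenced from the medial prefrontal cortex (PFC) of adult male C57BL/6 mice after a conditioned place preference procedure, a behavioral test of drug reward. SS mice received saline alone, CS mice received cocaine (20 mg/kg, intraperitoneal) and saline, MS mice received l-methionine (MET, 1 g/kg under the skin, 2 injections a day for 10 days) and saline, and MC mice received MET and cocaine. This MET dose is that of the labels and methods, while a figure legend of the study gives a lower one. Every group had 3 libraries, each made from RNA pooled from 2 animals, so that differences between single mice were not measured. Tissue was taken 2 h after the preference test in all 4 groups. Replicates are named below by the number in the sample labels.

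In the usual pathway a long primary transcript folds into a hairpin, Drosha cuts the hairpin out in the nucleus, and Dicer trims it in the cytoplasm. A mirtron is a short intron that is itself the hairpin: splicing and debranching replace the cut by Drosha, and one or both ends of the hairpin are splice sites. Precursors such as those of miR-320 and miR-484 are instead made directly by RNA polymerase II as short transcripts with a cap, which are exported and then cut by Dicer.

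The sequences show the splice sites that end the mirtrons. In the Mir877 and Mir1224 hairpins, GU and AG in capitals are the first and last bases of the intron, in the other hairpins capitals mark the mature miRNA, and in the mature miRNAs capitals mark the seed (bases 2 to 8), the part that pairs with target mRNAs. All are RefSeq sequences of build GRCm38.p6, written 5′ to 3′, and 5 of the 6 members were matched in that table.
mmu-miR-484: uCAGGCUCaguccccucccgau
mmu-miR-877-5p: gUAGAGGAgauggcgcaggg
mmu-miR-877-3p: uGUCCUCUucucccuccuccca
mmu-miR-1224-5p: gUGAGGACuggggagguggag
mmu-miR-702-3p: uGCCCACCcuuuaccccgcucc
Mir877 hairpin: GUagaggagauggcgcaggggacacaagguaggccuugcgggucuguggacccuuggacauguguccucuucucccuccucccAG
Mir1224 hairpin: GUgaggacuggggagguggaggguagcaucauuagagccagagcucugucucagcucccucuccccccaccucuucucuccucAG
Mir702 hairpin: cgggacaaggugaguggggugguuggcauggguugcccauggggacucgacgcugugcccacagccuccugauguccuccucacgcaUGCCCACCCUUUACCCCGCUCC
Mir484 hairpin: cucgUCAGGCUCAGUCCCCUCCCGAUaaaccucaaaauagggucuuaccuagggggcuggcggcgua

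The 85-nt Mir877 hairpin (chr17:35960730-35960814, minus strand) equalled, base for base, an intron of Abcf1, a gene of the ATP-binding cassette family that acts in translation. The 85-nt Mir1224 hairpin (chr16:20604452-20604536, plus strand) equalled an intron of Vwa5b2. Both 5p members therefore start with the first base of an intron, and 30 of 1005 mouse hairpins in the table (2.99%) start with GU and end with AG. The Mir702 hairpin (chr5:136991433-136991541, plus strand) lay across an intron of Plod3, which encodes a lysyl hydroxylase of collagen. That intron (chr5:136991442-136991543) starts 9 bases after the start of the hairpin and ends 2 bases after its end, so this hairpin is not the whole intron. Mir320 (chr14:70443510-70443591, plus strand) and Mir484 (chr16:14159626-14159692, plus strand) lay in no intron of a protein-coding gene on their own strand. The nearest start of a protein-coding gene on the opposite strand was that of Polr3d, a subunit of RNA polymerase III, 63 bases from Mir320. For Mir484 it was that of Marf1, at 359 bases. None of the 5 seeds was shared by another known mouse miRNA in the table, and no other miRNA had an identical sequence.

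Total counts per library ran from 7.77 to 11.1 in units of 1000000, and 3 counts, taken as the limit of detection, stood for 0.271 to 0.386 counts per 1000000 counts (CPM). No pair of libraries agreed within sampling noise. The tissue label held in the data, with the neural miR-124-3p and miR-9-5p at ranks 1 and 2 among known mature miRNAs. MC replicate 16 stood apart from the other 11 libraries. It had the lowest total, the lowest share of counts on miRNAs (56.1%) and the lowest TMM factor (0.675, against 0.826 to 1.26), where TMM is the edgeR scaling that aligns the bulk of miRNAs between libraries. Over the 780 tested miRNAs, the SD of its log2 deviation from the mean of the other libraries was 1.21, against 0.577 to 0.707 for each other library treated in the same way. It was the highest of all libraries for 33.5% of tested miRNAs and the lowest for 27.4%. The libraries also fell into 3 sets by their miRNA precursor profiles, which cross the treatments: SS 12, CS 8 and CS 9 in set A, CS 10, MC 16 and MC 17 in set C, and the other 6 libraries in set B. Values are therefore given with and without MC replicate 16, and within sets where a result turns on it.

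The 6 members were of middle abundance. miR-484 was the most abundant, at a mean of 426 CPM of the library total (rank 99 of 1374), followed by miR-320-3p at 178 (rank 143), although in MC replicate 16 miR-320-3p exceeded miR-484. The 5p arms from mirtrons, miR-877-5p and miR-1224-5p, came next at 34.7 and 33.5 (ranks 246 and 250), and their neighbouring levels did not differ beyond the spread between libraries. miR-702-3p had 18.3 and miR-877-3p 6.20 (ranks 304 and 382). Together they held 0.0768% to 0.179% of miRNA counts per library, with the highest share in MC replicate 16 and the next highest at 0.148%. No member was at 0 in any library. The lowest count was 32, for miR-877-3p in MC replicate 17, with an exact 95% Poisson interval of 21.9 to 45.2 that covers counting error only.

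**Figure D1:**
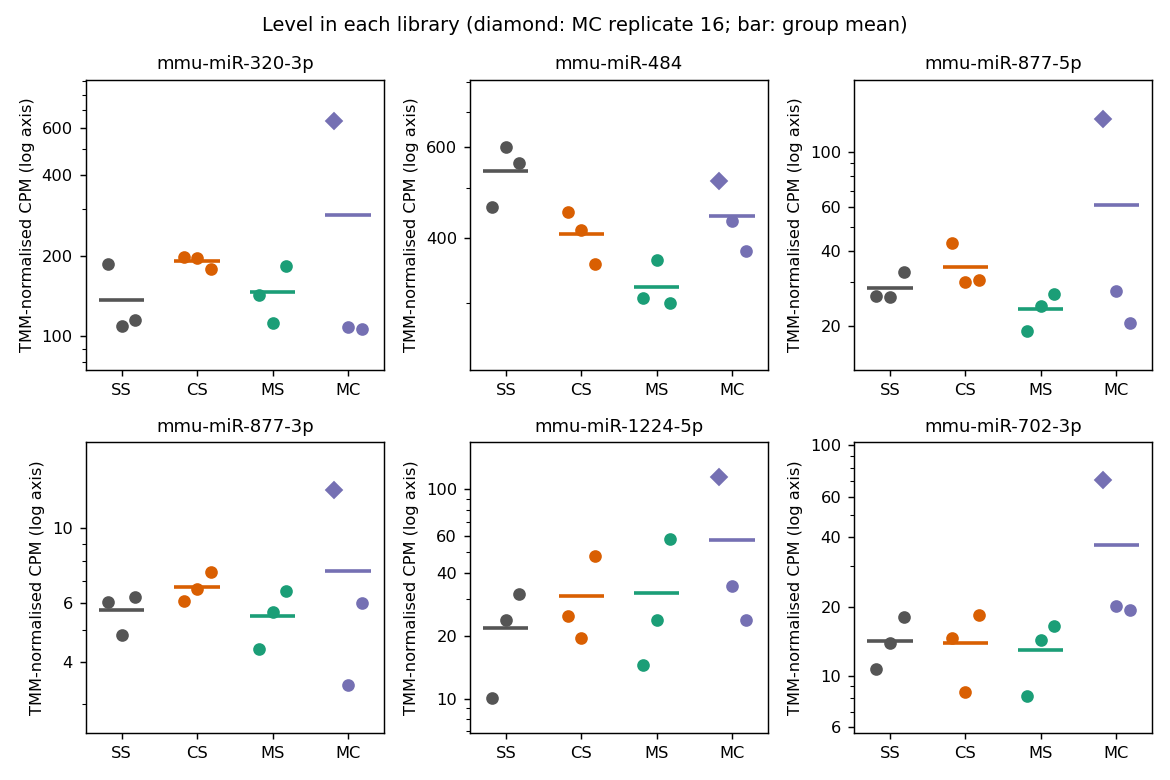
Level of each of the 6 miRNAs in the 12 libraries, as TMM-normalised CPM on a log axis, by treatment group; points are libraries, bars are group means and the diamond is MC replicate 16. For miR-320-3p the diamond sits at 639 against at most 199 elsewhere, whereas for miR-484 it lies at 514, below the highest SS library at 600.

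Of the miRNAs with capped precursors, miR-320-3p, which is expressed in many tissues, was at a TMM-normalised 187, 109 and 115 CPM in SS replicates 12, 13 and 14. It was at 199, 197 and 179 in CS replicates 8, 9 and 10, and at 143, 112 and 183 in MS replicates 3, 4 and 23. In MC replicates 16, 17 and 20 it was at 639, 108 and 106. One MC library was thus far above the other 11. The other 2 MC libraries held the lowest levels on this scale, only just below SS replicate 13 at 109. As CPM of the library total these 2 were at 125 and 127, above SS libraries at 90.4 and 111. Without MC replicate 16 the range of TMM-normalised levels over libraries was 1.87-fold.

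miR-484, which is likewise widely expressed, behaved otherwise. It was at 458, 600 and 558 CPM in SS, at 449, 414 and 356 in CS, at 306, 362 and 299 in MS, and at 514, 432 and 377 in MC, in the same order of replicates. Every CS and every MS library lay below every SS library, every MC library lay above every MS library, and MC overlapped SS and CS. The group means were 539 ± 72.8 (SD, n = 3 libraries) in SS, 441 ± 69.4 in MC, 406 ± 47.1 in CS and 322 ± 34.6 in MS. This separation needed the TMM factors. As CPM of the library total, the SS libraries were at 415, 496 and 539, those of CS at 567, 431 and 335, those of MS at 313, 430 and 295, and those of MC at 347, 506 and 443, so that no pair of groups was apart.

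Of the mirtron products, miR-877-5p was at 26.6, 26.2 and 33.2 CPM in SS, at 43.2, 30.2 and 30.7 in CS, at 19.2, 24.0 and 27.1 in MS, and at 136, 27.8 and 20.6 in MC. The other arm of its hairpin, miR-877-3p, was at 6.04, 4.82 and 6.26 in SS, at 6.08, 6.61 and 7.41 in CS, at 4.36, 5.63 and 6.53 in MS, and at 13.0, 3.42 and 6.00 in MC. Both arms were highest in MC replicate 16, the 5p arm by 2.28 on the log2 scale above the mean of the other 11 libraries and the 3p arm by 1.13.

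miR-1224-5p, the mirtron product from Vwa5b2, was the most variable member. Its levels were 10.1, 23.6 and 31.7 CPM in SS, 24.8, 19.5 and 48.1 in CS, 14.5, 23.7 and 57.8 in MS, and 114, 34.3 and 23.8 in MC. Each group spread widely, and apart from MC replicate 16 the range was still 5.74-fold, against at most 2.46-fold for the other 5 members.

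miR-702-3p was at 10.7, 13.9 and 18.0 CPM in SS, at 14.7, 8.48 and 18.3 in CS, at 8.19, 14.3 and 16.5 in MS, and at 71.2, 20.1 and 19.4 in MC. Each of the 3 MC libraries exceeded all 9 libraries of the other groups, although MC replicates 17 and 20 exceeded the highest of them, CS replicate 10, only slightly. Of the 780 tested miRNAs, 4 (0.513%) lay above all 9 in this way, and miR-702-3p was the single member that did. The order was kept on the scale of the library total, where the MC libraries were at 48.0, 23.6 and 22.8 and the other 9 at 8.39 to 18.5, and where 0.769% of tested miRNAs did so.

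The comparison of CS with SS asks what cocaine alone changed. A miRNA counted as called where the adjusted p was 0.05 or less and the log2 fold change was 1 or more in size. None of the 6 was called, and the background was the same: edgeR called 0% of the 780 tested miRNAs, 22 had an unadjusted p under 0.05, and DESeq2 called 0. Both miRNAs from Mir877, miR-320-3p and miR-1224-5p had positive log2 fold changes, from 0.23 to 0.50. Those of miR-320-3p and miR-877-5p turned with library set as a covariate, to -0.33 and -0.34. Within set A, where 2 CS libraries met 1 SS library, they did not turn: the difference was 0.08 for miR-320-3p and 0.44 for miR-877-5p. The fold change was -0.41 (SE 0.22) for miR-484, with an edgeR p of 0.0901 and an adjusted p of 0.994, and it was -0.04 (SE 0.52) for miR-702-3p. The median over the members was 0.25, beside 0.03 over all tested. In TMM-normalised CPM, CS and SS did not overlap for 1 of 6 members (miR-484, with CS lower), beside 10.4% of all tested miRNAs in either direction. As CPM of the library total, miR-484 overlapped and miR-877-3p did not, with CS higher (6.89 to 7.67 against 3.98 to 6.05). On that scale 13.2% of all tested miRNAs did not overlap. With no TMM factors the median over all tested miRNAs moved to 0.31 and the fold change of miR-484 to -0.12, so that miR-484 stayed below the bulk by a similar distance. Within library set A the difference of miR-484 was -0.09. All 5 neural markers were also lower in CS (median -0.30, 0 called), and their part in this was not tested.

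The comparison of MS with SS asks what MET alone changed, and it shares the SS libraries with the comparison above. Each MS library had less miR-484 than each SS library, with group means of 322 and 539 CPM and a log2 fold change of -0.74 (SE 0.22). Its edgeR p was 0.00602, rank 14 of 780, and its adjusted p 0.315, so it was not called. The tools differed on this point: DESeq2 gave -0.76 with an adjusted p of 0.0176, past the threshold on p but short of the limit of 1 on the fold change, and over all alternatives the adjusted p ran from 0.0176 to 0.672. Leaving out MC replicate 16, which is in neither group but enters the shared estimate of the spread, gave -0.66 and an adjusted p of 0.0745, and omitting the TMM factors, which moved the median over all tested miRNAs to 0.21, gave -0.48. Within library set B, where 3 MS libraries met 2 SS libraries, the difference was -0.85. Markers of other cells differed in the same comparison, with 0 called. All 5 neural markers were lower in MS (median -0.35). All 3 leukocyte markers were higher (median 0.87, with summed levels of 27.3 to 35.0 CPM against 13.6 to 20.5 in SS), as were 3 of 4 red blood cell markers (median 1.00). The liver marker miR-122-5p had a log2 fold change of 4.24. It was at 2437 CPM in MS replicate 3 and at 70.2 and 146 in the other MS libraries, against 12.3 to 71.1 in SS, so the groups overlapped. The part of these markers' cells in the level of miR-484 was not tested. MS and SS did not overlap for 1 of 6 members, beside 23.5% of all tested miRNAs, which is no more than the background. The other 5 members had log2 fold changes from -0.29 to 0.55, each within 1 SE of 0. edgeR called 0% of the tested miRNAs, 75 had an unadjusted p under 0.05, and DESeq2 called 7, none of them a member.

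**Figure D2:**
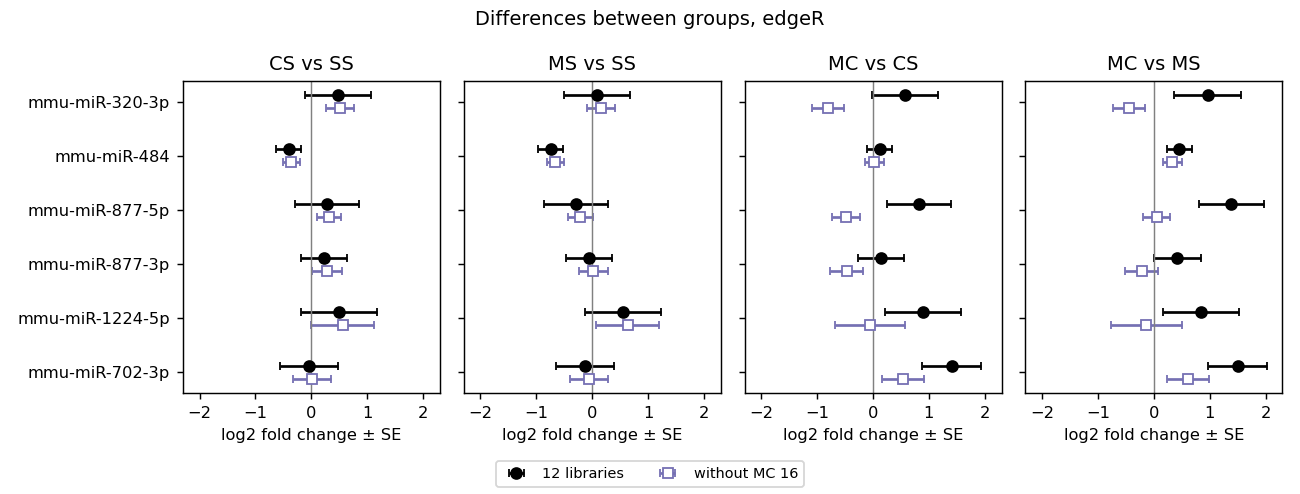
Log2 fold change and SE of the 6 miRNAs in the 4 comparisons between groups, by edgeR, over all 12 libraries (filled circles) and without MC replicate 16 (open squares). In both comparisons with MC the fold changes of miR-320-3p, miR-877-5p, miR-877-3p and miR-1224-5p lie near or below 0 without that library, whereas that of miR-702-3p stays above 0 (0.54 and 0.61) and that of miR-484 in MS against SS changes little (-0.74 and -0.66).

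The comparison of MC with CS asks what MET changed on top of cocaine. All 6 members had positive log2 fold changes, with a median of 0.69 beside 0.08 over all tested, where 55.0% were positive. The highest was that of miR-702-3p at 1.41 (SE 0.53), from a mean of 13.8 ± 4.98 CPM (SD, n = 3 libraries) in CS to 36.9 ± 29.7 in MC. Its edgeR p was 0.0212 and its adjusted p 0.577, and none of the members was called. edgeR called 0% of all tested miRNAs and 58 had an unadjusted p under 0.05, while DESeq2 called 0. MC and CS did not overlap for 1 of 6 members (miR-702-3p), beside 8.85% of all tested. The positive values rested on 1 library. Without MC replicate 16, 2 of 6 were positive and the median was -0.27: miR-320-3p turned to -0.81, miR-877-5p to -0.49, miR-877-3p to -0.47 and miR-1224-5p to -0.06, while miR-702-3p kept 0.54 (SE 0.37). Within library set C, which holds MC replicate 16, 2 MC libraries against 1 CS library gave 1.03 for miR-702-3p.

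The comparison of MC with MS asks what cocaine changed on top of MET, and it shares the MC libraries with the comparison above. All 6 were again positive, with a median of 0.90 beside 0.05 over all tested, where 52.3% were positive. The value was 1.50 for miR-702-3p (SE 0.53, edgeR adjusted p = 0.561), which had rank 7 of the 780 by its unadjusted p of 0.0156. Next came miR-877-5p with 1.38 (SE 0.58, adjusted p = 0.561), and miR-484 had 0.45 (SE 0.22, adjusted p = 0.561). None was called, as were 0% of all tested miRNAs, of which 65 had an unadjusted p under 0.05, and DESeq2 called 0. MC and MS did not overlap for 2 of 6 members, miR-484 and miR-702-3p, beside 8.59% of all tested. Without MC replicate 16, 3 of 6 were positive and the median was -0.04. The value of miR-877-5p was then 0.05, whereas miR-702-3p kept 0.61 (SE 0.37) and miR-484 0.32 (SE 0.17). Within library set B, with 1 MC library against 3 MS libraries, the difference was 0.62 for miR-702-3p and 0.23 for miR-484.

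The interaction, which asks whether the change with cocaine was different under MET, was positive for all 6 members (median 0.67, beside 0.06 over all tested). It was 0.86 (SE 0.31) for miR-484, since cocaine went with a lower level after saline and a higher level after MET, with an edgeR p of 0.0178, rank 8 of 780, and an adjusted p of 0.804. With no TMM factors it was 0.44. The median over all tested miRNAs moved under that scaling too, from 0.03 to 0.31 in CS against SS and from 0.05 to -0.02 in MC against MS. For miR-702-3p the interaction was 1.54 (SE 0.74, edgeR adjusted p = 0.804). No member and 0% of all tested miRNAs passed an adjusted p of 0.05, with 34 at an unadjusted p under 0.05 and 0 by DESeq2. Without MC replicate 16 the interaction was 0.68 for miR-484 and 0.59 for miR-702-3p, and it was negative for the other 4. In the edgeR test of any difference among the groups, miR-702-3p and miR-484 had the smallest p of the members, at ranks 31 and 40, with an adjusted p of 0.593 each. edgeR passed 0% of all tested miRNAs there, 59 had an unadjusted p under 0.05, and DESeq2 passed 5.

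The members differed in how they stood in MC replicate 16. The level there was above the mean of the other 11 libraries by a log2 of 2.29 for miR-702-3p, 2.28 for miR-877-5p, 2.14 for both miR-320-3p and miR-1224-5p, 1.13 for miR-877-3p and 0.33 for miR-484. These are ranks 39, 40, 53, 54, 177 and 321 of the 780 tested miRNAs. MC replicate 16 was the highest library for 5 of 6 members, beside 33.5% of all tested miRNAs, and on the scale of the library total for the same number, beside 20.6%. On that scale miR-484 was below the mean of the others, at -0.29.

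Base composition moved with this library. Over the 636 tested mature miRNAs with a known sequence (85.3%), the deviation of MC replicate 16 correlated with the percentage of G at a Spearman's rho of 0.486 and with that of G and C at 0.594. This is a description across miRNAs that share the same libraries, and its part in the results was not tested. All 5 members with a sequence are rich in G and C: miR-702-3p holds 68.2%, miR-1224-5p 66.7%, miR-877-5p 65.0%, miR-484 63.6% and miR-877-3p 59.1%, against a median of 50.0% over those miRNAs. Of the 167 miRNAs with at least 59% G and C, 134 were above the mean of the other libraries in MC replicate 16, by a median of 0.98 over the 167. In that order miR-702-3p was 17, miR-877-5p 18, miR-1224-5p 23, miR-877-3p 71 and miR-484 127. In G alone the members parted. miR-1224-5p holds 61.9% and miR-877-5p 55.0%, against a median of 22.7%, and all 27 miRNAs with at least 50% G were above the mean of the others, by a median of 2.03. miR-484 holds 18.2% G, miR-702-3p 9.09% and miR-877-3p 4.55%. Of the 58 miRNAs with at most 10% G, 20 were above the mean of the others, and the median was -0.47. Among these 58, miR-702-3p had rank 3 and miR-877-3p rank 8.

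Marker miRNAs of other cells moved in that library as well. The summed level of red blood cell markers (miR-451a, miR-144 and miR-486a, 4 of 4 detected) was 573 CPM in MC replicate 16, against 1548 to 3881 in the other 11. Of this sum miR-451a alone held 567. It and miR-144-3p, 2 of the 4, were below the other 11 libraries, while miR-144-5p and miR-486a-5p were within their range. The summed level of leukocyte markers (3 of 3 detected) was 6.87 against 13.6 to 166, and that of oligodendrocyte markers (2 of 2) 155 against 377 to 967. Muscle markers (63.5 against 31.0 to 73.5), the liver marker miR-122-5p (208 against 8.45 to 2437), choroid plexus markers (27.7 against 21.0 to 44.4) and neural markers were within the range of the other libraries as sums. Single markers were not: 2 of 5 neural markers were below the other 11 libraries (miR-9-5p at 22804 against 35900 to 63761, and miR-218-5p at 3559 against 6638 to 11799) and 1 was above them (miR-138-5p at 36965 against 15794 to 23611). Of the 3 muscle markers, miR-1a-3p was below, at 2 counts and so under the limit of detection, and miR-206-3p was above, at 25 counts. Of the 3 choroid plexus markers 1 was below. No marker was at 0 in all libraries. The part of these cells in the members' levels was not tested, and fewer cells of a type and less RNA per cell cannot be told apart in such tissue. The leukocyte and oligodendrocyte markers and miR-451a hold 33.3% to 40.9% G and C, against a median of 50.0% over miRNAs with a known sequence. miR-144-3p, which was below the other 11 libraries, holds 30.0%. miR-144-5p, which was within range, holds 30.4%. It had 2 counts in MC replicate 16, under the limit of detection. The lowest of the other 11 libraries was at 0, so miR-144-5p could not fall below them. The part of base composition in the marker levels was not tested.

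**Figure D3:**
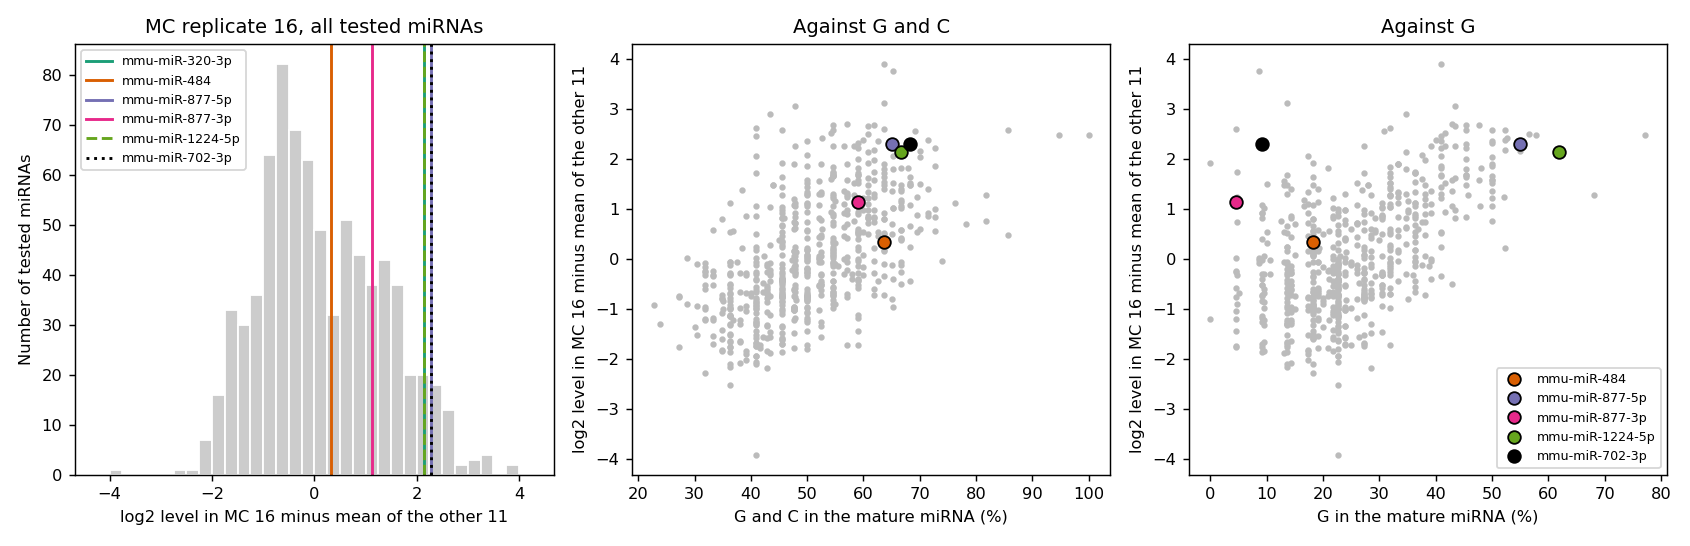
On the left, the number of tested miRNAs by the log2 level in MC replicate 16 minus the mean of the other 11 libraries, with vertical lines at the 6 miRNAs; in the middle and on the right, the same difference against the percentage of G and C and of G alone for the 636 miRNAs with a known sequence (grey points), with 5 of the 6 marked. The lines of miR-320-3p, miR-877-5p, miR-1224-5p and miR-702-3p lie between 2.14 and 2.29. All 5 marked miRNAs lie at 59.1% G and C or more, while in G alone they spread from 4.55% to 61.9%.

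The arms of a hairpin can be set against each other within a library, free of its scaling. The count ratio of 5p to 3p for Mir877 was 10.5 in MC replicate 16, 8.13 in MC replicate 17 and 3.44 to 7.11 in the other libraries. For Mir1224 it was 18.7 in MC replicate 16 and 3.98 to 14.2 elsewhere. The MS libraries of Mir877 were close together, at 4.39, 4.27 and 4.15, while those of Mir1224 spread from 3.98 to 9.72. Such a ratio was common in that library: over 220 hairpins with both arms tested, MC replicate 16 had the highest ratio of all libraries for 32.7%. For Mir702 the 5p arm had 0 to 7 counts per library against 77 to 373 for the 3p arm, and mmu-miR-320-5p had no count.

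**Figure D4:**
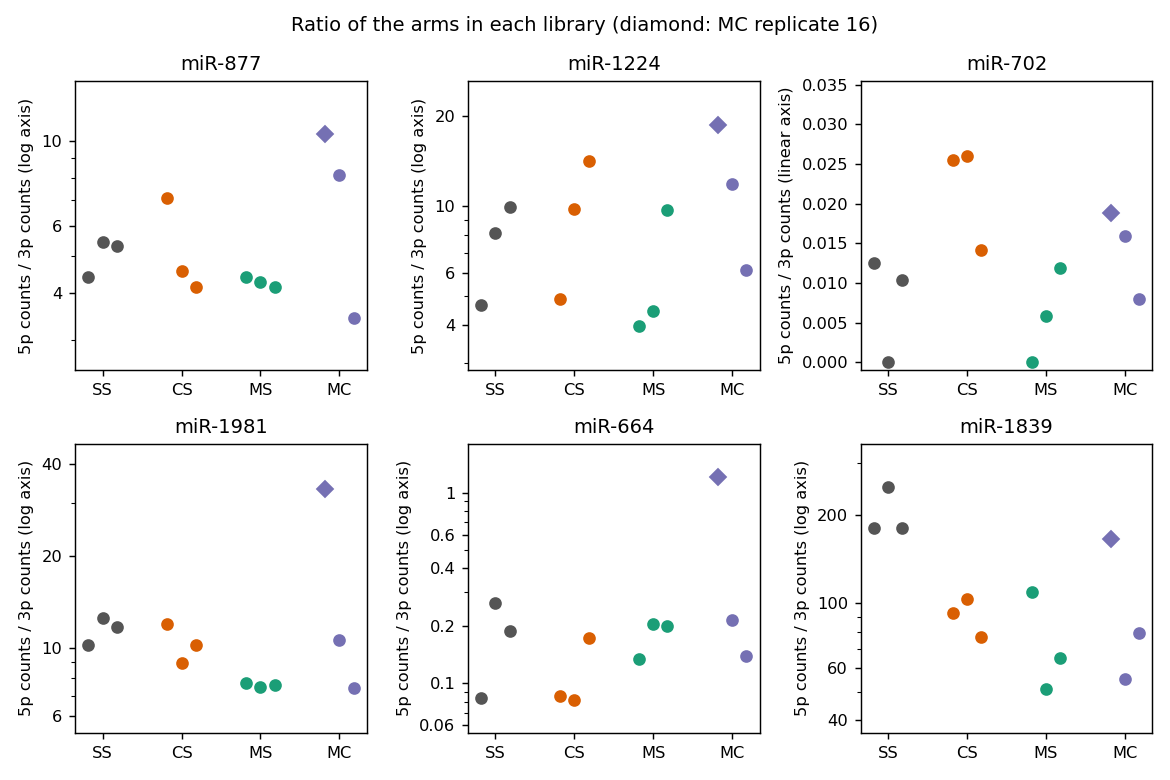
Ratio of 5p to 3p counts in each library, for the 4 mirtron hairpins miR-877, miR-1224, miR-702 and miR-1981 and for miR-664 and miR-1839, whose hairpins lie in snoRNAs; axes are log except for miR-702, points are libraries and the diamond is MC replicate 16. The diamond is the highest point for miR-877, miR-1224, miR-1981 and miR-664, at 10.5, 18.7, 33.3 and 1.21, and lies below the highest library for miR-702 and miR-1839 (165 against 248).

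The other miRNAs of the same routes were examined as lists. The other arm of Mir1224, miR-1224-3p, is the only tested one of 3 further arms and had log2 fold changes from -0.22 to 0.85. Of 8 further mirtron miRNAs, from introns of Marc2 (Mir1981), Oaz1 (Mir1982) and Arhgef17 (Mir3102), 6 had a count, 4 were tested and none was called in any comparison. MC replicate 16 was high for miR-1981-5p, at 1526 CPM against 250 to 461 in the other 11 libraries, and for miR-3102-5p.2-5p, at 25.6 against 2.23 to 9.50. It was not high for miR-1982-3p, at 3.62 against 2.46 to 4.58. Of 6 miRNAs from snoRNA hosts or made without Dicer, all were tested and none was called. There the arms of miR-664 parted, with the 5p arm at 78.2 in MC replicate 16 against 6.57 to 17.2 and the 3p arm at 64.5 against 65.8 to 91.8, and miR-451a, which is cut by Argonaute 2 in place of Dicer, was at 567 against 1540 to 3856. The ratio of 5p to 3p was thus highest in that library for miR-664 and Mir1981, as it was for Mir877 and Mir1224. It was not so for miR-1839, at 165 against 51.0 to 248, nor for Mir702, at 0.0188 against up to 0.0260 from 7 or fewer 5p counts.

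Reads were also counted on the precursor families of these miRNAs. RNA of 18 to 30 nt was recovered from the gel, so these are short reads assigned to a family and do not measure uncut precursors. Over all libraries they made up 20.0% of precursor and mature counts together for mir-877 (1113 precursor counts), 7.82% for mir-320 (1643), 5.80% for mir-484 (2960) and 2.11% for mir-1224 (89). The mir-320 family had 232, 279 and 314 counts in SS 12, CS 8 and CS 9, which form library set A, and 35 to 135 in the other 9 libraries. Mature miR-320-3p was also high in these 3 libraries (187, 199 and 197 CPM), which were the highest after MC replicate 16. MS replicate 23 and CS replicate 10, of other sets, were close behind at 183 and 179. On the scale of the library total the highest MS library (181) exceeded the highest SS library (169). Precursor profiles defined the sets, so likeness within a set is by construction. The mir-484 family was uneven, with 1026 counts in SS replicate 13, 654 in MS replicate 3 and 644 in MS replicate 23, against 18 to 131 in the other 9, whereas mature miR-484 counts ran only from 2697 to 5969. The mir-877 family ran from 35 to 163 counts, the highest being MC replicate 16 and CS replicate 8 with 161.

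The miRNAs most like each member across the 12 libraries, by Pearson's r of log2(CPM + 0.5), were found among all tested mature miRNAs. miR-484 was closest to miR-379-5p (r = 0.85) and miR-690 (0.85), and without MC replicate 16 both stood at 0.87. For the other members that library carried much of the likeness. miR-877-5p and miR-505-5p had an r of 0.97 over 12 libraries and 0.79 over 11, and miR-320-3p and miR-5134-3p 0.93 and 0.72. miR-702-3p and miR-330-3p had 0.94 and 0.77, miR-1224-5p and miR-667-3p 0.92 and 0.84, and miR-877-3p and miR-5126 0.92 and 0.80. Among the members themselves, miR-320-3p and miR-702-3p had an r of 0.60 over 12 libraries and -0.43 over 11. miR-1224-5p and miR-702-3p kept 0.71 of 0.85, the highest of the 15 pairs without that library. Both are from introns, but the other pairs of members from introns had only 0.01 to 0.35 without that library. These values are descriptions over libraries that share their depth and scaling.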

How the data were processed

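Groups and replicate numbers were taken from the sample labels. The 6 miRNAs and the lists were chosen with earlier results of these data known. The authors removed low-quality reads, adapters and reads under 16 nt and mapped with AASRA, and the submitters' processing notes name Bowtie and mm10. The deposited counts are raw read numbers per small RNA, and the deposited TPM is the authors' count over the library total times 1000000. Counts summed to the stated total in all 12 libraries and TPM matched within 0.005, so only counts were analysed. Library preparation from poly-A addition can count arms and sequences unequally, and intervals cover counting error only.

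Counts of mature and predicted miRNAs were tested with the quasi-likelihood F-test of edgeR 4.0.16 under R 4.3.3 (all 12 libraries, 1 coefficient per group, TMM factors from the miRNAs, library size the total count), with Benjamini-Hochberg adjustment over 780 miRNAs. The 3 libraries of a group were kept as replicates. The p-values measure the spread between these pools of 2 animals. The steps were tested on simulated counts. DESeq2 1.42.0, other scalings, other filters, a fit of 6 libraries, library set as a covariate and leaving out each library were the alternatives. Log2 levels use a pseudocount of 0.5. Named miRNAs are the 6 members, their other arms, fixed lists of mirtron, snoRNA-derived and marker miRNAs, and the tested mature miRNAs most like each member (the nearest is printed, for miR-484 the nearest 2). Introns and gene starts are those of protein-coding genes in GENCODE M21 (GRCm38), and sequences are from RefSeq. Other gene types were not searched. Duplicates were sought by chi-square tests over 66 pairs (smallest statistic 206 per degree of freedom). Other steps used Python 3.11.15, pandas 2.3.3 and matplotlib 3.10.9.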

Additional observations from a re-analysis of the deposited data

Results flagged for a closer look

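miR-484 differed in opposite directions in the comparisons with cocaine, and was called in neither. All 3 CS libraries were below the SS libraries, where 10.4% of all tested miRNAs did not overlap in either direction. All 3 MC libraries were above the MS libraries, where 8.59% did not overlap. The difference between these changes was a log2 of 0.86 (SE 0.31, edgeR adjusted p = 0.804). With no TMM factors, where the bulk of miRNAs moved as well, it was 0.44. As CPM of the library total the groups overlapped in both contrasts. Within library sets the differences were -0.09 for CS against SS (set A) and 0.23 for MC against MS (set B).

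Precursor reads entered no comparison between groups. For mir-320 they were at 32.9 and 36.1 counts per 1000000 in CS replicates 8 and 9, against at most 28.2 in SS (replicate 12). These libraries form set A, which precursor profiles defined, and CS replicate 10 was at 6.84. For mir-877, CS replicates 8 and 9 (19.0 and 12.2) and MC replicates 16 and 17 (21.0 and 11.2) exceeded the highest SS library (10.6). For mir-1224, CS replicate 10 (1.59), MS replicate 23 (1.06) and MC replicate 16 (2.32) exceeded the highest SS library (0.993), from 18 counts or fewer in each library. For mir-484 no library exceeded SS replicate 13, at 102.

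Reads of a separate hairpin type on the arm names of mir-1224 numbered 32 in CS replicate 10, 57 in MS replicate 23, 53 in MC replicate 16 and 25 in MC replicate 20, against at most 20 in SS. No library had such reads under both arm names.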

How the results depend on the processing

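No paired analysis was possible because the groups share no replicate numbers. No member was called under any alternative. The number of called miRNAs in MS against SS moved from 0 to 7 with DESeq2 and to 3 in a fit of 6 libraries, and over single libraries left out it ran from 0 to 5, the latter without MC replicate 16. For the 4 groups it was 5 with DESeq2 and ran from 0 to 3, the latter also without MC replicate 16. Of 234 member values under other alternatives, 17 changed sign, and the cause was not tested. With no TMM factors, the median over all tested miRNAs moved from 0.03 to 0.31 (CS against SS) and from -0.03 to 0.21 (MS against SS), so signs near 0 in these comparisons turn with the scaling itself. Log2 values became 0.21 (CS against SS) and 0.11 (MS against SS) for miR-702-3p, 0.18 (MS against SS), -0.12 (MC against CS) and -0.30 (interaction) for miR-877-3p, -0.040 for miR-484 in MC against CS, and -0.18 and -0.17 for the interactions of miR-320-3p and miR-1224-5p. With library set as a covariate they became -0.33 for miR-320-3p and -0.34 for miR-877-5p in CS against SS, -0.027 and -0.42 for miR-1224-5p in MC against CS and the interaction, and -0.17 for miR-320-3p in MC against MS. miR-702-3p in CS against SS was 0.016 with TMM from all features, 0.0063 with at least 10 counts and 0.014 in a fit of 6 libraries, and miR-877-3p in MS against SS was 0.015 with at least 10 counts.

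Leaving out single libraries changed the sign of 24 of 360 member values. The ranges that crossed 0 were, in CS against SS, -0.32 to 0.20 for miR-702-3p. In MS against SS they were -0.13 to 0.39 for miR-320-3p, -0.21 to 0.090 for miR-877-3p, -0.20 to 0.92 for miR-1224-5p and -0.36 to 0.11 for miR-702-3p. In MC against CS they were -0.81 to 0.97 for miR-320-3p, -0.49 to 1.24 for miR-877-5p, -0.47 to 0.49 for miR-877-3p and -0.061 to 1.38 for miR-1224-5p. In MC against MS they were -0.45 to 1.36 for miR-320-3p, -0.22 to 0.77 for miR-877-3p and -0.13 to 1.59 for miR-1224-5p. For the interaction they were -0.97 to 0.88 for miR-320-3p, -0.27 to 1.53 for miR-877-5p, -0.50 to 0.54 for miR-877-3p and -0.69 to 1.10 for miR-1224-5p. In both MC comparisons and the interaction, the low end was the fit without MC replicate 16. Depth limits miR-877-3p most, with 32 to 77 counts per library.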
